A study of Mus musculus with 2 samples.

Results

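The 8 genes described here encode the antizymes and the core enzymes of polyamine metabolism: Oaz1, Oaz2, Odc1, Azin1, Amd1, Sms, Srm and Sat1. They were chosen by gene name, and every transcript model that carried the name was taken, 78 models with 2283 reads in replicate 1 and 87 models with 2429 reads in replicate 2. They are 8 of 18177 annotated genes with reads. Because the genes were named with earlier results of these libraries in view, their levels and read classes are a description. The libraries were made from total RNA of adrenal glands of male B6CASTF1/J mice, an F1 hybrid of the B6 and Cast strains, at 14 days of age, with no treatment named. They form 1 group of 2 biological replicates, the labels do not show whether these came from separate animals, and the alleles of the hybrid's parents were not separated in the values. Each library was sequenced with long reads, in which a read can span a whole transcript, so levels are counts scaled to 1000000 reads (CPM, each read counted as 1 molecule and not divided by length).

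Polyamines (putrescine, spermidine and spermine) are small positively charged molecules that bind nucleic acids and are needed for growth. Ornithine decarboxylase makes putrescine. Antizymes bind it, inhibit it and deliver it to the proteasome without ubiquitin, and antizyme inhibitors bind antizymes in its place. Antizyme protein is made only when the ribosome skips a base at a stop codon inside the reading frame, a +1 frameshift that polyamines promote, which closes a feedback loop.

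The sequence at that site is shown first, because the classes of the antizyme reads turn on it. Each line runs 5′ to 3′ along the coding strand. In the first line of each pair the codon before the stop codon and the stop codon itself are in capitals. The second line is the same stretch as the annotated coding transcript (Oaz1-207, Oaz2-206) gives it, with the skipped base missing.
Oaz1 RNA, chr10:80828265-80828327 (mm10, plus strand): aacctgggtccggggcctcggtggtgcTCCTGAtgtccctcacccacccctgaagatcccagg
Oaz1 as annotated: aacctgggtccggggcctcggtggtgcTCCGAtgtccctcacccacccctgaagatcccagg
Oaz2 RNA, chr9:65686242-65686304 (mm10, plus strand): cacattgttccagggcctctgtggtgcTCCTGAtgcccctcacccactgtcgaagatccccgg
Oaz2 as annotated: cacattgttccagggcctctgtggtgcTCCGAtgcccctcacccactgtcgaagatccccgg
Both genes carry the same codon and stop codon, and 51 of the 63 bases shown (81.0%) are the same. The skipped base is the T of the stop codon, at position 80828295 of chromosome 10 in Oaz1 and at position 65686272 of chromosome 9 in Oaz2. Read straight through from the annotated start codon, Oaz1-207 has 68 codons before this stop, and with the base skipped it has 227. Oaz2-206 has 32 codons before the stop and 189 with the base skipped.

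The GENCODE annotation writes this translational event into the transcript as an intron. Of 7 annotated Oaz1 transcripts, Oaz1-202, Oaz1-203 and Oaz1-207 have an intron of 1 base at the site, and Oaz1-201 has one of 4 bases that ends on the same base. Of 7 annotated Oaz2 transcripts, Oaz2-204 and Oaz2-206 have the intron of 1 base and Oaz2-201 the intron of 4 bases. The skipped base is present in Oaz1-205, Oaz1-206, Oaz2-203, Oaz2-205 and Oaz2-207. Such introns are rare: 299 of 141862 annotated transcripts, in 257 genes, have an intron under 20 bases. None of the other 6 members has one, and their shortest annotated introns run from 74 bases in Sat1 to 553 in Azin1.

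No read model of the antizymes had such an intron: the shortest intron was 70 bases in Oaz1 and 188 bases in Oaz2 in each library. By the exon coordinates of the models, the skipped base lay inside an exon for nearly all reads. The counts were 1445 of 1451 Oaz1 reads in replicate 1 and 1716 of 1732 in replicate 2. For Oaz2 they were 287 of 293 and 264 of 277 reads. The bases of the reads were not examined, so a gap of a few bases in a read could be missed here. Because a read is called known only when its whole chain of introns equals an annotated one, nearly all antizyme reads fell outside the known class. Known models took 3 Oaz1 reads (0.207%) in replicate 1 and 0 of 1732 in replicate 2, which allows a share of up to 0.221% (Wilson). They took 0 of 293 Oaz2 reads in replicate 1 and 3 of 277 (1.08%) in replicate 2. All 6 of these reads were in models annotated as retained introns. Chains classed as new made up 98.1% and 98.2% of Oaz1 reads, mostly as new in catalog, a new combination of annotated splice sites. Over all annotated genes 76.3% of reads in replicate 1 and 73.7% in replicate 2 were in known models.

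When annotated introns under 20 bases were removed before chains were matched, 1392 Oaz1 reads in replicate 1 (95.9%, 95% Wilson interval 94.8 to 96.8) and 1664 in replicate 2 (96.1%, 95.1 to 96.9) matched an annotated transcript. For Oaz2 the share became 88.4% and 87.4%. The other members kept their shares. Across all genes, 1715 reads in replicate 1 and 1964 in replicate 2 gained a match this way, and Oaz1 and Oaz2 together held 96.1% and 96.9% of them. Among 1894 genes with at least 200 reads the median gene had 86.7% known reads, and 31 genes (1.64%) had under 2%. Of 9 such genes with a short annotated intron, 4 had under 2%: Oaz1, Oaz2, Pitpna and Mpc1, the last pair named after their values were seen. Pitpna and Mpc1 had 358 and 575 reads over both libraries. As the antizymes held nearly all reads that gained a match, most reads of this pair remained without one. The antizyme reads measure RNA, and copies of the same RNA molecule were not told apart from separate molecules. How often ribosomes shifted frame was not measured.

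**Figure D1:**
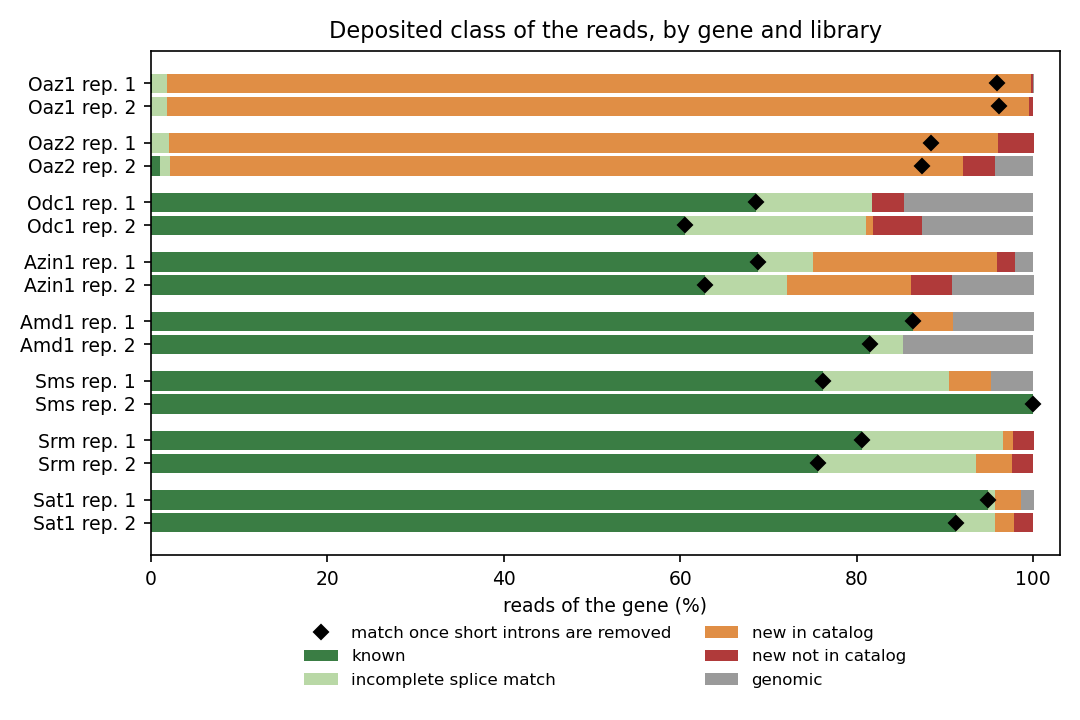
Share of each gene's reads in each deposited class (horizontal axis, percent of the gene's reads), with a bar per library; the diamond marks the share that matches an annotated transcript once introns under 20 bases are removed. Oaz1 and Oaz2 are almost without known reads, the diamonds of Oaz1 stand at 95.9% and 96.1%, and for the other genes the diamond sits at the end of the known part.

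Oaz1, antizyme 1 (chromosome 10, 80826656 to 80829290, plus strand), was the most abundant member, at 1504 CPM in the library of replicate 1 and 1758 in that of replicate 2 (1631 ± 180.0, SD, n = 2). It ranked 53rd and 43rd among all genes. A single chain of 5 exons held 1373 of 1426 full-splice reads (96.3%, 95.2 to 97.1) in replicate 1 and 1640 of 1700 (96.5%, 95.5 to 97.2) in replicate 2. It equals Oaz1-201 and Oaz1-207 without their short introns, so these transcripts cannot be told apart by their splicing. Of 18 full-splice chains in all, 7 had 1 read.

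The Oaz1 alternatives with at least 10 reads lay at 3 acceptors, each downstream of the main one, and in 2 retained introns. The bases left out with the downstream acceptor are in capitals in the lines that follow, with the next 9 bases of the exon in lower case. They are shown because each ends in AG, the pair of bases at which introns end.
Oaz1 exon start, chr10:80828237-80828251 (mm10, plus strand): TTCTAGggttgccct
Oaz1 exon start, chr10:80828711-80828727 (mm10, plus strand): TTTTGCAGctctcctag
Oaz1 last exon start, chr10:80828871-80828901 (mm10, plus strand): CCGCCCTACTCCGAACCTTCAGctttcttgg
The 22 bases at the start of the last exon were left out in 27 reads against 1402 with the main acceptor in replicate 1 (1.89%, 1.3 to 2.74) and in 20 against 1685 in replicate 2 (1.17%, 0.761 to 1.8). This acceptor is annotated in Oaz1-204, in a chain other than the one read. The 6 bases at the start of the exon that holds the frameshift site were left out in 11 reads (0.765%) and 20 reads (1.17%), as in Oaz1-202. The 8 bases were left out in 5 reads (0.345%) and 7 reads (0.406%), as in Oaz1-203. Of these 3 segments, all inside the coding span, that of 6 bases is a multiple of 3 and those of 8 and 22 bases are not.

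The last intron of Oaz1, 74 bases at positions 80828797 to 80828870, has the same ends as the RefSeq hairpin of the microRNA gene Mir1982. The mature sequences are shown with the seed, bases 2 to 8, in capitals, because the 3p arm ends on the last base of the intron.
mmu-miR-1982-5p, chr10:80828808-80828827 (GRCm38.p6, plus strand): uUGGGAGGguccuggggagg
mmu-miR-1982-3p, chr10:80828848-80828870 (GRCm38.p6, plus strand): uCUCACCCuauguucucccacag
The other intron, of 78 bases, was retained in 7 and 4 reads. The 74-base intron was spliced out in 1402 reads of replicate 1 and 1685 of replicate 2. It lay inside an exon in 19 reads (1.34%, 0.858 to 2.08) and 20 reads (1.17%, 0.761 to 1.8). Of these, 14 and 19 belonged to a single chain of 4 exons, which was classed as an incomplete splice match. Ends in these files are those of the model, not of each read, so a read of that chain that stopped inside the intron would be counted here too. Another 2 reads and 1 read were assigned to Mir1982 itself, under the 3 reads taken as the limit of a count of 0. Long-read libraries of this kind do not capture mature microRNAs.

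**Figure D2:**
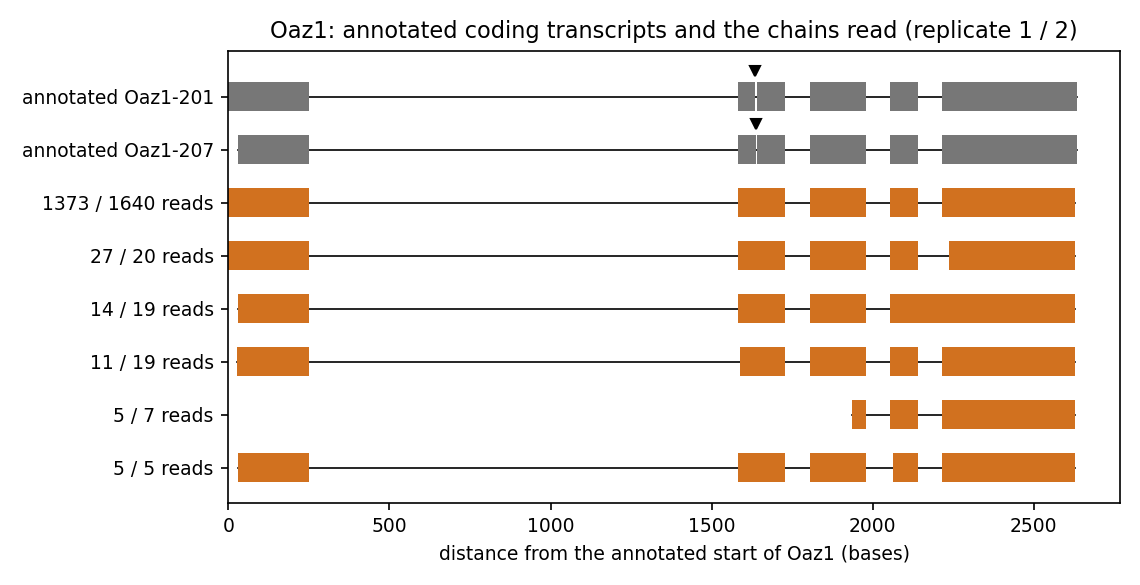
Exons (boxes) and introns (lines) of 2 annotated Oaz1 coding transcripts in grey and of the spliced chains with at least 10 reads in orange, by distance from the annotated start of the gene in bases; the numbers are reads in replicate 1 and replicate 2, and triangles mark the annotated introns of 4 bases and 1 base. The chain with 1373 and 1640 reads runs through the marked place, and the chain with 14 and 19 reads runs through the last intron.

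Oaz2, antizyme 2 (chromosome 9, 65668001 to 65690300, plus strand), stood at 304 and 281 CPM (292 ± 15.9, SD, n = 2), the next highest level among the members in each library. Oaz1 had 4.95 times as many reads as Oaz2 in replicate 1 (95% interval 4.37 to 5.63) and 6.25 times in replicate 2 (5.5 to 7.12). The leading Oaz2 chain held 258 of 287 full-splice reads (89.9%, 85.9 to 92.9) and 238 of 262 (90.8%, 86.7 to 93.8). Like that of Oaz1, it equals a pair of annotated coding transcripts, Oaz2-206 and Oaz2-201, once the short introns are set aside.

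Unannotated Oaz2 splicing took 2 forms with at least 10 reads. In the first line the 3 bases left out are in capitals, and the second is the exon that was skipped.
Oaz2 exon start, chr9:65686196-65686207 (mm10, plus strand): TAGtattttgcc
Oaz2 skipped exon, chr9:65688821-65688906 (mm10, plus strand): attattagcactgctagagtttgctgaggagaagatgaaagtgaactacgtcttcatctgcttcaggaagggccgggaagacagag
The acceptor 3 bases downstream was used in 10 reads against 273 in replicate 1 (3.53%, 1.93 to 6.38) and in 10 against 250 in replicate 2 (3.85%, 2.1 to 6.93). The segment ends in AG, as in Oaz1, and lies in the exon with the frameshift site, upstream of it. No annotated Oaz2 transcript uses it. The 86-base exon, which is no multiple of 3, was skipped in 11 reads (3.87%, 2.18 to 6.8) and 5 reads (1.93%, 0.827 to 4.44). The intervals of the libraries overlap for both forms. A further chain with 4 and 3 reads, under the limit of 10 reads for naming chains, used an exon upstream of the gene's annotated start. This chain was classed as new in catalog, so its splice sites are annotated ones. Whether that exon belongs to another gene was not examined.

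Odc1, ornithine decarboxylase, the target of the antizymes (chromosome 12, 17544794 to 17551505, plus strand), had 137 reads in replicate 1 and 127 in replicate 2, 142 and 129 CPM (135 ± 9.25, SD, n = 2). Oaz1 reads were 10.6 times as many (8.88 to 12.7) in replicate 1 and 13.6 times as many (11.4 to 16.5) in replicate 2. Oaz2 reads were 2.14 and 2.18 times as many as those of Odc1. Odc1-201, of 12 exons, held 94 of 99 and 77 of 85 full-splice reads (94.9% and 90.6%). The 2 annotated Odc1 transcripts marked for nonsense-mediated decay and the 5 annotated retained-intron transcripts had 0 reads as known models in both libraries. A shift of 3 bases to a downstream acceptor, in the 5′ untranslated part, was read 3 and 5 times, under the limit set for naming chains. It is given after its value was seen, because its length equals that of the Oaz2 shift.

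Odc1 also had the largest share of incomplete reads among the members in each library. Incomplete splice matches and single-exon models made up 38 of its 137 reads (27.7%) and 42 of 127 (33.1%), against 19.5% and 23.6% over all annotated genes. Of these, 20 and 16 reads formed a single-exon model at positions 17551084 to 17551505. It starts where Odc1-201 ends and lies within the longer last exon of Odc1-205, ending where that transcript ends. Both ends are thus annotated transcript ends and may not be those of the reads. Incomplete splice matches alone made up 13.1% and 20.5% of Odc1 reads, beside 16.0% and 17.9% of Srm reads. Shares of incomplete reads for Oaz1 were 1.72% and 1.85%, for Oaz2 2.05% and 5.42%, and for Sat1 2.21% and 4.35%. Srm had 16.0% and 17.9%, Azin1 8.33% and 18.6%, Amd1 9.09% and 18.5%, and Sms 19.0% and 0 of 8. Of the 8 incomplete Azin1 reads in replicate 2, 4 were in a single-exon model only 4 bases long. For Sms, 1 read of replicate 1 was in a model of 1 base. Such models are too short to be the span of a read. An 81-base Odc1 intron lay inside an exon in 2 reads (1.83%, 0.505 to 6.44) and 9 reads (8.82%, 4.71 to 15.9), by the ends of the models. The next intron, of 82 bases, did so in 0 reads (0 to 3.4%) and 7 reads (7.0%, 3.43 to 13.7). The intervals of this 82-base intron do not overlap between the libraries. It was given after its value was seen, and the difference was not tested.

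Azin1, antizyme inhibitor 1, a relative of ornithine decarboxylase without its activity (chromosome 15, 38487427 to 38519266, minus strand), had 48 and 43 reads, 49.8 and 43.7 CPM (46.7 ± 4.31, SD, n = 2). Azin2, antizyme inhibitor 2, had more, 99.5 and 82.2 CPM, 2.0 times (1.4 to 2.89) and 1.88 times (1.29 to 2.79) the reads of Azin1. In known models alone the genes were closer, with 37 and 40 reads for Azin2 and 33 and 27 for Azin1. Summed, reads of Oaz1 and Oaz2 outnumbered those of Odc1, Azin1 and Azin2 by 6.21 times (5.47 to 7.06) in replicate 1 and 8.0 times (7.02 to 9.16) in replicate 2. These are ratios of RNA, and frameshifting, translation and protein turnover stand between them and the proteins.

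Azin1 had the most varied splicing for its depth. Its leading transcript, Azin1-201, held 30 of 44 full-splice reads (68.2%, 53.4 to 80.0) and 25 of 35 (71.4%, 54.9 to 83.7), the lowest top share of the 8 members in each library. Azin1-203, which adds a 160-base exon upstream of the start codon, held 3 reads (6.82%) and 2 reads (5.71%). Counted over all chains, that exon was included in 6 reads against 37 without it (14.0%, 6.56 to 27.3) and in 7 against 29 (19.4%, 9.75 to 35.0). An acceptor 3 bases downstream inside the coding part, annotated in Azin1-205, was used in 7 reads (15.2%, 7.57 to 28.2) and 3 reads (8.82%, 3.05 to 23.0). The share of the top transcript did not differ detectably between the libraries (unadjusted p = 0.809, Fisher's exact test), and the intervals of these alternatives overlap.

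**Figure D3:**
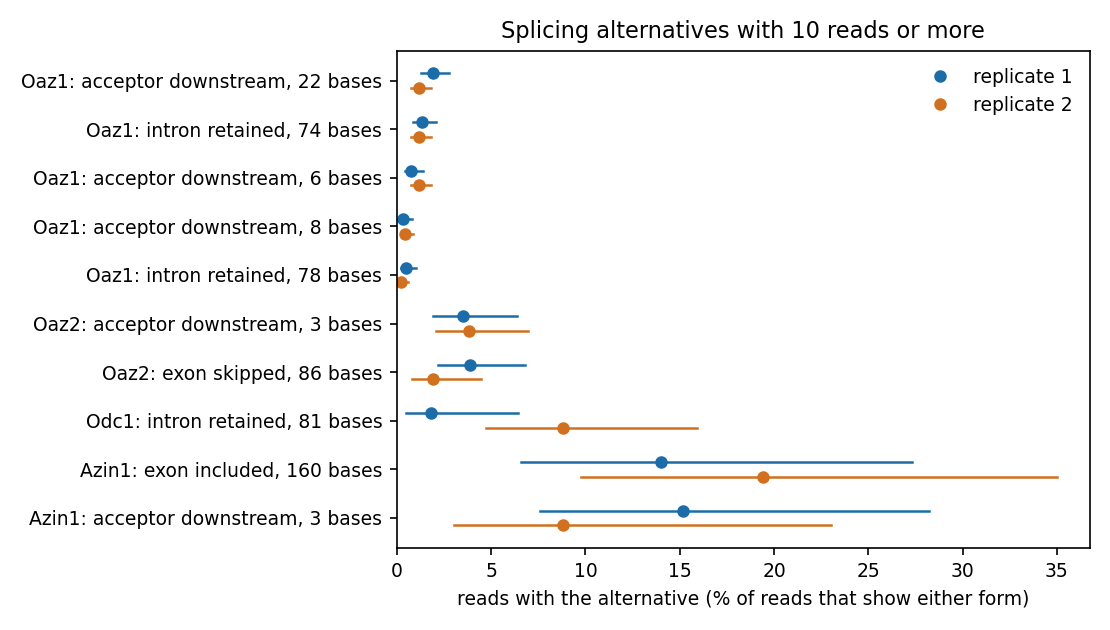
Share of reads with the alternative form (horizontal axis, percent of the reads that show either form) for each splicing alternative with at least 10 reads over both libraries; points are single libraries and lines 95% Wilson intervals. Alternatives in the antizymes stay below 4%, those in Azin1 lie between 8.82% and 19.4%, and the intervals of the libraries overlap in each row.

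Amd1, S-adenosylmethionine decarboxylase, which provides the aminopropyl groups (chromosome 10, 40287458 to 40302186, minus strand), had 22 and 27 reads, 22.8 and 27.4 CPM (25.1 ± 3.26, SD, n = 2). Amd1-201, of 8 exons, held 19 of 20 and 22 of 22 full-splice reads. The intronless copy Amd2 had 21 reads in each library, all in single-exon models. The coding part of Amd1-201 matches Amd2 in 1001 of 1002 bases (99.9%), and the whole transcript in 99.4%. The level of Amd1 is therefore uncertain for reads that cross no intron, while 20 and 23 of its reads did cross one.

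The aminopropyl transferases differed from each other in read count. Srm, spermidine synthase (chromosome 4, 148591503 to 148594993, plus strand), had 175 and 123 reads, 181 and 125 CPM (153 ± 40.0, SD, n = 2). Sms, spermine synthase (chromosome X, 157443855 to 157492287, minus strand), had 21 and 8 reads, 21.8 and 8.12 CPM (14.9 ± 9.65, SD, n = 2). Srm reads outnumbered Sms reads 8.33 times (5.29 to 13.8) in replicate 1 and 15.4 times (7.56 to 36.4) in replicate 2. Srm-201 held 141 of 147 and 93 of 101 full-splice reads, and Sms-201 held 16 of 17 and 8 of 8. These leading models were 1338 bases long for Srm and 3717 for Sms, and any part of length in the ratio was not tested.

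Sat1, spermidine/spermine acetyltransferase, the first enzyme of polyamine breakdown and export (chromosome X, 155213132 to 155216449, minus strand), had 136 and 92 reads, 141 and 93.4 CPM (117 ± 33.6, SD, n = 2). Sat1-201 held 124 of 133 (93.2%) and 83 of 88 (94.3%) full-splice reads. Sat1-207, which includes an extra 110-base exon and is marked for nonsense-mediated decay, had 1 read in each library. That exon was thus included in 0.787% (0.139 to 4.33) and 1.15% (0.203 to 6.23) of the reads across it. The 1466-base intron in which it lies was kept in 7 reads (5.26%) and 2 reads (2.27%).

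In both libraries the order of levels began with Oaz1 and Oaz2 and ended with Azin1, Amd1 and Sms. Srm, Odc1 and Sat1 lay between them, at 181, 142 and 141 CPM in replicate 1 and at 125, 129 and 93.4 CPM in replicate 2. Srm and Odc1 changed places between the libraries, and so these neighbours did not differ beyond the spread of the libraries. Amd1 and Sms had 22 and 21 reads in replicate 1, a difference of 1 read. The leading models of Azin1, Amd1 and Sms were the longest of the members, at 4871, 3204 and 3717 bases. That of Oaz1 was the shortest, at 1069 bases. Oaz2, at 1844 bases, stood above the shorter Srm (1338) and Sat1 (1162). Any part of length in the order or in the ratios between genes was not tested.

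**Figure D4:**
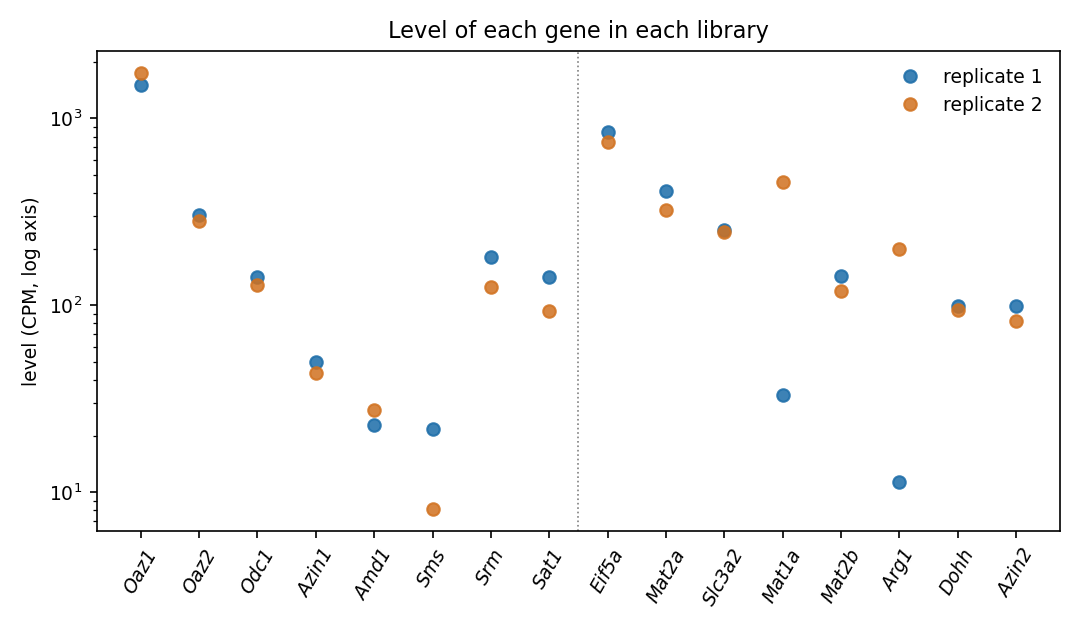
Level of each member (left of the dotted line) and of the 8 most abundant other polyamine pathway genes (right) in CPM on a log axis, with a point per library. Oaz1 stands above all others in both libraries, at 1504 and 1758 CPM, and Mat1a and Arg1 show the widest gaps between the libraries.

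With a single group, the comparison the design allows is that of the replicates, which shows how far each level repeats. Of 8 members, 3 passed the two-sided exact binomial test at a Benjamini-Hochberg adjusted p of 0.05, against 9.17% of 11094 genes tested. Oaz1 was 1.17 times as high in replicate 2 (95% interval 1.09 to 1.25, adjusted p = 3.56e-04, exact binomial test), where 4.35% of genes were called in that direction. Srm was lower in replicate 2, at 0.688 times its level in replicate 1 (0.542 to 0.872, adjusted p = 0.0206, exact binomial test), and so was Sat1 at 0.663 times (0.503 to 0.87, adjusted p = 0.0296, exact binomial test); 4.81% of genes were called higher in replicate 1. Sms stood at 0.373 times (0.143 to 0.877), with an adjusted p of 0.119 in the exact binomial test. Oaz2 (0.926), Odc1 (0.908), Azin1 (0.877) and Amd1 (1.2) had intervals that included 1.

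These directions are relative to a shift of all genes. On the log2 scale, the members had a median ratio of -0.16 (replicate 2 over replicate 1) and all genes tested one of -0.15. Below a ratio of 1 were 6 of 8 members, beside 7011 of 11094 genes tested. TMM scaling moved the median of all genes to 0.01, and of the genes called the share higher in replicate 2 from 47.5% to 76.7%; DESeq2 size factors gave 70.0% and scaling by spike-ins 37.3%. Under TMM scaling the calls of Srm (adjusted p = 0.203) and Sat1 (0.21) were lost, as with DESeq2 size factors (0.121 and 0.131), and Oaz2 and Odc1 changed sign. Oaz1 was higher in replicate 2 under each of these scalings. The p-values cover counting error only, not the spread between animals, and in such bulk tissue fewer cells of a type and less RNA per cell cannot be told apart.

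Transcript use was compared in a separate test. Of 4813 genes with enough full-splice reads 6 (0.125%) differed in the share of their top transcript at an adjusted p of 0.05 in Fisher's exact test. None of the 7 members tested was among them, and the lowest unadjusted p of a member was 0.264, for Srm, in Fisher's exact test. Sms had too few reads for this test.

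The other genes of the pathway were taken from a list of 31. Of these, 26 could be tested, 4 were higher in replicate 2, 1 was higher in replicate 1 and 21 did not pass, beside 4.35% and 4.81% of all genes tested in these directions and 9.17% in either. Their median log2 ratio was -0.03, beside -0.15 over all genes tested. Eif5a, which carries hypusine, the amino acid made from spermidine, was the most abundant at 842 and 746 CPM. By the mean of the libraries Mat2a came next, the S-adenosylmethionine synthetase of most tissues, at 407 and 322 CPM, and Slc3a2, the heavy chain of amino acid transporters, at 252 and 247 CPM, although in replicate 2 Mat1a, at 459 CPM, stood above both. Mat2b, the regulatory partner of Mat2a, stood at 144 and 120 CPM and Dohh, which completes hypusine, at 99.5 and 94.4 CPM. Oaz3, the antizyme of the testis, had 0 and 1 read, and Arg2 had 1 read and 0.

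The genes of the list that were higher in replicate 2 included enzymes known from liver. Mat1a, the liver form of S-adenosylmethionine synthetase, had 32 and 452 reads, 13.8 times its level in replicate 1 (9.66 to 20.5, adjusted p = 1.41e-91, exact binomial test). Arg1, the arginase of the urea cycle, which makes ornithine, had 11 and 196 reads, 17.5 times (9.54 to 35.5, adjusted p = 7.51e-42, exact binomial test). Agmat, annotated as agmatinase, had 15 and 40 reads, 2.61 times (1.41 to 5.09, adjusted p = 0.0162, exact binomial test). Only 0 and 17 of these Agmat reads were in known models, and with known models alone it was also called higher in replicate 2. Mat2a was lower in replicate 2, at 0.79 times (0.679 to 0.918, adjusted p = 0.0254, exact binomial test), a call lost under TMM scaling (0.433) and DESeq2 size factors (0.25).

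Hepatocyte markers moved with these genes. All 8 were detected, and together they reached 753.6 CPM in replicate 1 but 15658 in replicate 2, led by Alb (226 and 4393 CPM) and Ahsg (180.0 and 4087 CPM). Their part in the results for Arg1, Mat1a and Agmat, or for the members, was not tested.

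**Figure D5:**
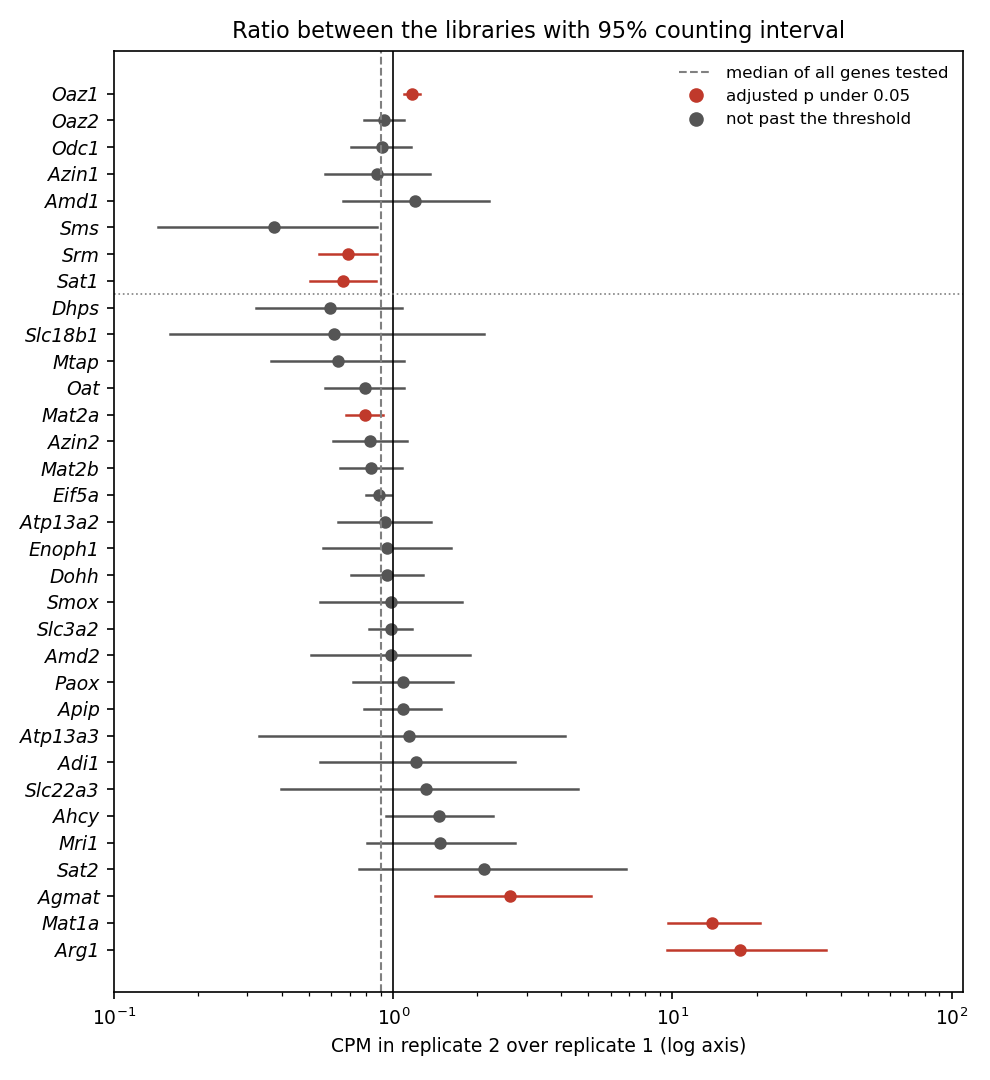
Ratio of CPM in replicate 2 over replicate 1 (log axis) with 95% exact intervals for the 8 members (above the dotted line) and the tested pathway genes described here, in red where the adjusted p is under 0.05; the dashed line is the median of all genes tested. Oaz1 lies above 1 at 1.17, Srm and Sat1 below at 0.688 and 0.663, and Mat1a and Arg1 lie above 10.

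The libraries held 981697 and 1003061 reads, of which 1.73% and 1.8% were ERCC spike-ins, and a gene with 0 reads was below 3.11 and 3.05 CPM. The tissue label was met by 5 of 5 markers of the adrenal cortex, summing to 33571 and 34693 CPM and led by Cyp11a1 (15608 and 18160 CPM) and Cyp21a1 (7736 and 6662 CPM). All 5 medulla markers were found, at 8172 and 7942 CPM, led by Chgb (3120 and 3112 CPM) and Chga (2644 and 2615 CPM). Brown fat markers summed to 9677 and 9637 CPM, led by Fabp4 (4371 and 4263 CPM) and Cidea (3130 and 3045 CPM), and erythroid markers to 11871 and 11664 CPM, led by Hba-a1 (7448 and 7762 CPM) and Hbb-bs (4180 and 3739 CPM). Immune markers were higher in replicate 1, at 583.6 and 179.7 CPM, led by Cd74 (352 and 87.3 CPM) and Lyz2 (180.0 and 58.9 CPM). Of 4 kidney markers 3 were at 0 in both libraries and Aqp2 stood at 2.07 and 4.06 CPM.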

How the data were processed

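Per the file headers, the mm10 assembly and GENCODE release M21 were used upstream, and the deposited values are read counts per model, with no normalization by the authors. TALON is named as the source in the deposited annotation, and its classes (known, incomplete splice match, new in catalog, new not in catalog, genomic, antisense, intergenic) were used as given. The aligner, its version and any filter were not given in the sources used here.

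Reads were summed over all models of a gene and scaled to 1000000 reads without ERCC spike-ins (964679 and 984958). Genes that reached 10 reads in the libraries' sum were compared by a two-sided exact binomial test, and top transcript shares of genes with at least 20 full-splice reads per library by Fisher's exact test, both with Benjamini-Hochberg adjustment over all genes. Ratios have exact and shares Wilson 95% intervals, for counting error only, and no molecular identifiers were used. Introns under 20 bases were removed from annotated and read chains before rematching. Alternatives used edgeR 4.0.16 (TMM) and DESeq2 1.42.0 (size factors), with SciPy 1.17.1 for tests and edlib for alignment. The tests were run on simulated counts that held counting error only, so this check does not cover spread between libraries. Sequences came from the GENCODE transcripts and, for microRNAs, from RefSeq.

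The members, lists, tests and the rule for named genes were chosen with earlier results of these data known. The rule took all members, pathway genes past the threshold or among the 8 highest, annotated transcripts with at least 5% of full-splice reads, unannotated chains with at least 10 reads, and the 2 highest genes of each tissue list. Splicing alternatives counted over all chains were added after chains had been seen. The values of 1 gene of the pathway list are not reported here; it is included in the list's counts.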

Additional observations from a re-analysis of the deposited data

Results flagged for a closer look

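Reads outside the members' own models exceeded the 3 reads taken as the limit of a count of 0 at 5 places. On the strand opposite to Azin1 there were 2 reads in replicate 1 and 11 in replicate 2, and opposite to Sat1 3 and 8 reads. The other members had at most 2 reads on the other strand in a library. Of intronless copies, Amd2 had 21 and 21 reads, Amd-ps3 5 and 7, and Oaz1-ps, a processed pseudogene of Oaz1, 10 and 0. All reads of these copies were in single-exon models, so none crossed an intron.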

How the results depend on the processing

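TMM scaling and DESeq2 size factors each left 1 member called, Oaz1, in place of 3. With spike-in scaling, no read minimum or a minimum of 50 reads the number stayed within 1.5 times. Under TMM scaling the log2 ratios of Oaz2 and Odc1 turned to 0.05 and 0.02. The summed level of the members, 2416 CPM, was 2541 with reads of annotated genes as the denominator, 2852 with multi-exon models and 538 with known models only, which leave out nearly all antizyme reads. The share of antizyme and other member reads that matched an annotated chain after removal of short introns, 91.3%, was 92.3% with splice sites allowed to differ by 5 bases and 92.7% without models of 1 read; limits of 10 and 50 bases for a short intron changed no call. Pathway and all-gene counts stayed within 1.5 times. No paired analysis was possible because there is 1 group. Amd1, Sms and Azin1, with under 50 reads per library, are limited by depth.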
